A study of Mus musculus with 8 samples.

Results

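Prox1 and Prox1os, the transcript annotated on the opposite strand across its start, were followed in the hippocampus of Wls conditional mutant mice. They were chosen by gene name and are 2 of 46517 genes listed in the bulk RNAseq tables and 2 of 24051 genes in the tables of single nuclei. The bulk libraries held between 56002381 and 79576196 expected counts, and the snRNAseq samples held 5304 and 10460 nuclei (mutant) and 6469 and 7192 nuclei (control) with between 26307081 and 76486132 UMIs. Both hippocampi of 1 mouse, about 12 weeks old and male by the labels and the study's methods, made each sample. Bulk RNAseq and single nucleus RNAseq (snRNAseq) were each made from 2 Gfap-Cre;Wls fl/- mice (mutant) and 2 Gfap-Cre;Wls fl/+ mice (control). Wls encodes Wntless, the membrane protein that carries Wnts to the cell surface for secretion. All mice carried the Gfap-Cre transgene, which is active in neural progenitors of the medial and dorsal telencephalon. Recombined cells of the mutant keep no intact Wls, those of the control keep 1 copy, and cells outside that lineage are not recombined.

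Prox1 is a homeodomain transcription factor. In the brain it is best known from dentate granule cells (DGCs), where it is made from the progenitor stage onward and is needed for granule cell identity and survival. It is also made by GABAergic interneurons that come from the caudal ganglionic eminence and by cells of the oligodendrocyte lineage, and outside the brain it sets the identity of lymphatic endothelium. Prox1os is annotated as a spliced antisense RNA.

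In the mm10 (GRCm38) annotation, Prox1 (ENSMUSG00000010175) lies on the minus strand of chromosome 1 at chr1:190118035-190170714, over 52680 bases, and its 3 annotated transcripts have 5 exons each. Prox1os (ENSMUSG00000079045) lies on the plus strand at chr1:190170296-190217276, over 46981 bases. The gene bodies overlap by 419 bases, from 190170296 to 190170714, and their annotated starts are 418 bases apart. The first exon of Prox1os, of 133 bases at chr1:190170296-190170428, falls inside the first exons of the transcripts Prox1-202 (447 bases) and Prox1-203 (653 bases). Its second exon, of 695 bases at chr1:190216582-190217276, lies beyond the Prox1 gene body. Another antisense gene, Gm28172, lies inside Prox1 at chr1:190168670-190169633. The bulk libraries were made with a kit that marks strand, but whether the counting used strand is not given in the sources used here. Without strand, reads from these overlaps cannot be assigned to Prox1, Prox1os or Gm28172.

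**Figure D1:**
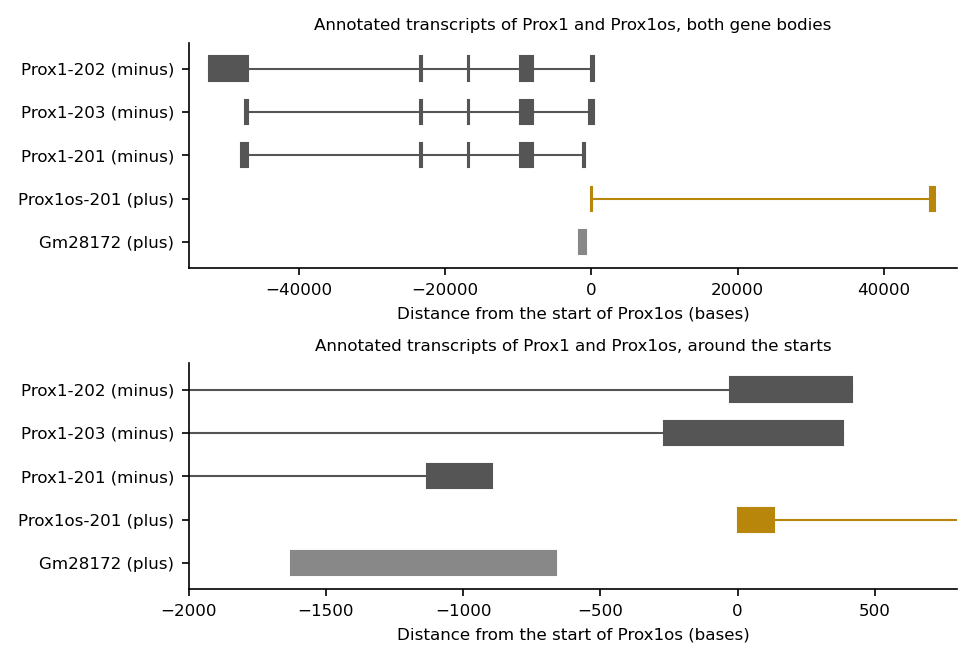
Annotated transcripts of Prox1 (dark, minus strand), Prox1os (gold, plus strand) and Gm28172 (grey, plus strand), with boxes for exons and lines for introns. The horizontal axis is the distance in bases from the start of Prox1os, over both gene bodies (upper panel) and around the starts (lower panel), where the 133-base first exon of Prox1os sits inside the first exons of Prox1-202 and Prox1-203.

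The promoters of Prox1 are shown because the start of Prox1os lies between them and because both transcripts were lower in the mutant hippocampus. The sequences are from RefSeq (GRCm38.p6) and cover the 250 bases before each of 2 annotated starts, written 5' to 3' on the minus strand. Promoter 1 is chr1:190170828-190171077, within the intron of Prox1os, and its start lies 531 bases from that of Prox1os. Promoter 2 is chr1:190169516-190169765, and its start lies 781 bases from that of Prox1os on the other side. Capitals mark matches to CANNTG, the E-box read by basic helix-loop-helix factors such as the Neurod family, and to GGGCGG, the GC box. A search of both strands also covered CTTTGA, the core of the site read by Lef1 and Tcf7l2, which act with beta-catenin in Wnt signalling. No marked match overlaps another.
Promoter 1: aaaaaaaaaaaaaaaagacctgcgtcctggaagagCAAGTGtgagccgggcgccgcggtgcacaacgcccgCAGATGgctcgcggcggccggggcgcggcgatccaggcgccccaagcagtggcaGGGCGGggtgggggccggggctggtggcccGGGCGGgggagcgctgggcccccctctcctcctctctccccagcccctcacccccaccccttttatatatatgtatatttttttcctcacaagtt
Promoter 2: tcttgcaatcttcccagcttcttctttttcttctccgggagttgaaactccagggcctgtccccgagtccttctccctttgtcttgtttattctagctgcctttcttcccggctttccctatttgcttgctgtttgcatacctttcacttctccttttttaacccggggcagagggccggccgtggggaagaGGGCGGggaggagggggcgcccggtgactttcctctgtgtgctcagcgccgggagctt
Promoter 1 held 2 E-boxes, 215 and 179 bases before the start, and 2 GC boxes, at 125 and 95 bases. Promoter 2 held 1 GC box, at 58 bases, and no E-box. The letters CTTTGA were in neither window. Over 32851 RefSeq windows of the same length and placing, 66.2% held CANNTG, 32.7% held GGGCGG and 13.8% held CTTTGA.

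The labels were checked before the results. Wls itself was at 3.67 and 6.86 CPM (counts scaled to a common library size) in bulk RNAseq from mutant replicates 1 and 2, against 13.2 and 13.0 in control replicates 1 and 2. In snRNAseq, summed over all nuclei, it was at 6.96 and 11.7 against 20.7 and 27.4 CPM. The mutants were the lower in each data set, although the bulk difference (log2 fold change -1.31, SE 0.296) did not pass the test (edgeR, FDR = 0.117). All mice are labelled male, but the bulk libraries of mutant replicate 2 and control replicate 2 held 230.1 and 518 CPM of Xist, which is made by female cells, and 0.352 and 0.343 CPM of Ddx3y, a gene of the Y chromosome. The bulk libraries of mutant replicate 1 and control replicate 1 held 1.44 and 1.05 CPM of Xist and 54.5 and 58.3 CPM of Ddx3y. Every snRNAseq sample held Ddx3y, between 31.6 and 53.8 CPM, and at most 3.49 CPM of Xist. The titles of the replicate 2 samples of a genotype carry the same code in both data sets, but what the code stands for is not given. Why the bulk replicate 2 libraries go against the male label was not settled. Bulk values are therefore also given within replicate 1 and within replicate 2. Each pair of snRNAseq samples shared between 8 and 21 nuclear barcodes.

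Prox1 RNA was 6.65-fold lower in the mutant hippocampus, and Prox1os was 5.90-fold lower. In bulk RNAseq, Prox1 was at 32.4 and 18.8 CPM in mutant replicates 1 and 2 and at 165 and 174 CPM in control replicates 1 and 2 (25.6 ± 9.60 against 169 ± 6.91, mean ± SD, n = 2 each). Prox1os was at 0.867 and 0.427 CPM in the mutants and at 3.81 and 3.74 CPM in the controls (0.647 ± 0.311 against 3.77 ± 0.0502). For both transcripts the groups did not overlap, mutant replicate 2 was the lowest library, and the controls lay close together. An exact permutation of 2 libraries against 2 allows no two-sided p below 0.33, so that non-overlap alone is no test. The share of all genes whose groups did not overlap was not counted, here or for the samples below. The log2 fold change of Prox1 was -2.73 (SE 0.255, 95% interval -3.38 to -2.09, FDR = 0.0244 by edgeR's quasi-likelihood test), and it was called lower at a fold change (FC) above 3 and an FDR below 0.05. That of Prox1os was -2.56 (SE 0.356, interval -3.46 to -1.66), and it missed the call at FDR = 0.0511. Of the 20687 genes tested, 41 were called lower, or 0.198%, and 4 higher, or 0.0193%, against 1 of the 2 members. By fold change Prox1 ranked 34 and Prox1os 43 from the lowest of all genes tested. Within replicate 1 the log2 ratios were -2.35 for Prox1 and -2.14 for Prox1os, and within replicate 2 they were -3.22 and -3.13, so that both transcripts were lower in either pair. Leaving out control replicate 1 or control replicate 2 ended the call of Prox1 in edgeR, but its log2 fold change was about as large, at -2.77 and -2.69. Each of these fits leaves 1 control library. Prox1os was called lower by DESeq2, in the authors' matrix with limma, without the filter on low counts, and without either mutant library. With 1 mutant library left, the spread comes from the 2 controls alone, which lay close together, and the lone library is assumed to vary like them. Of all genes, DESeq2 called 0.261% lower and 0.319% higher, and limma 0.218% and 0.029%. Lower calls were 0.353% of genes without the filter, and 0.68% and 0.372% without mutant replicate 1 and 2. In bulk tissue, fewer cells that make a transcript and less of it per cell cannot be told apart.

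Per length, Prox1 was the more abundant transcript in every bulk library. It was at 8.41 and 5.02 TPM, the share of a transcript among all transcripts after allowing for length, in the mutants and at 45.1 and 48.51 TPM in the controls. Prox1os was at 2.17 and 1.13 TPM against 10.47 and 10.32 TPM. The ratio of Prox1os to Prox1 in TPM was 0.258 and 0.225 in mutant replicates 1 and 2 and 0.232 and 0.213 in control replicates 1 and 2, and the groups overlapped. In these libraries the genotypes were thus far apart in the level of each transcript, while the ratios overlapped. The mutant ratios rest on 50.6 and 33.6 expected counts of Prox1os. In snRNAseq the ratio of UMIs over all nuclei was 0.258 and 0.300 in mutant replicates 1 and 2. It was 0.342 and 0.361 in control replicates 1 and 2, without overlap. UMI ratios are not per length, and the difference was not tested.

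**Figure D2:**
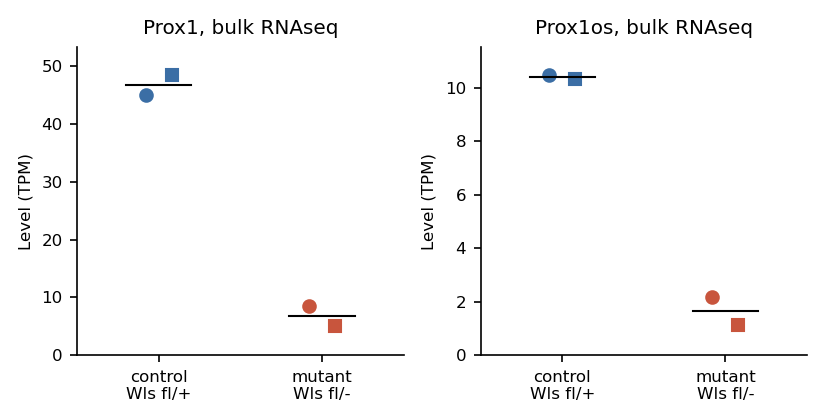
Levels of Prox1 and Prox1os in TPM in the bulk RNAseq libraries, with control in blue and mutant in red, circles for replicate 1, squares for replicate 2 and a line at each group's mean. Both mutant libraries lie below both control libraries, at 8.41 and 5.02 against 45.1 and 48.51 TPM for Prox1 and at 2.17 and 1.13 against 10.47 and 10.32 TPM for Prox1os.

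Genes that mark DGCs were lower with Prox1. Of 12 DGC markers, all tested, 10 were called lower and none higher, beside the background of 0.198% and 0.0193%, with a median log2 fold change of -1.98 against 0.011 over all genes tested. The largest changes were those of Lgr6 (-3.24, SE 0.336, FDR = 0.0282), a receptor for R-spondins, which strengthen Wnt signalling, and of Dsp (-3.19, SE 0.226, FDR = 0.0185), the junction protein desmoplakin. The others called were Plk5, C1ql2, Tdo2, Fam163b, Stxbp6, C1ql3, Trpc6 and Pdzd2. The smallest changes were those of Calb1 (-1.07), which encodes the calcium buffer calbindin, and Lct (-0.75), and neither reached the fold change of 3. The list holds genes that the study described in these samples, so that its direction is not independent evidence.

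Of 19 transcription factors and other genes of the granule lineage, 10 were lower and 2 higher at an unadjusted p under 0.05 in edgeR, where 9.94% of all genes were lower and 8.86% higher, and their median log2 fold change was -0.25. None of the 19 was called in edgeR, DESeq2 or limma, a count near the background of each, from which nothing is read about the list. Neurod1, a factor of granule neuron differentiation, had the lowest FDR of the list (0.0247) at a log2 fold change of -0.85 (SE 0.0811), short of a 3-fold change. Igfbpl1 (-1.55, FDR = 0.175) and Sox11 (-0.97, FDR = 0.0808), both of them genes of young neurons, had the largest changes. Zbtb20 (-0.13), a repressor made in hippocampal neurons, and Sox4 (0.13) had the smallest.

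Of 15 partners of Prox1 and genes acting upstream of it, 2 were lower and 3 higher at an unadjusted p under 0.05 in edgeR, against the same 9.94% and 8.86%, at a median log2 fold change of -0.073. None was called in edgeR, DESeq2 or limma. They included Axin2, a feedback target of beta-catenin signalling, at -0.58 (SE 0.125, FDR = 0.110), Lef1 at 0.20, Tcf7l2 at 0.25, and Ctnnb1, which encodes beta-catenin, at -0.16. The largest change was that of Nr5a2, a nuclear receptor that Prox1 binds, at 1.93 (FDR = 0.195), from 0.187 and 0.251 CPM in the mutants against 0.0532 and 0.0596 CPM. Hdac3, a corepressor subunit, had the smallest, at 0.032.

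Markers of choroid plexus, the tissue that makes cerebrospinal fluid, also differed between these libraries. The 10 markers summed to 1208 and 8496 CPM in mutant replicates 1 and 2 and to 320.0 and 203 CPM in control replicates 1 and 2. Their most abundant gene, Ttr, was at 635 and 4963 CPM against 84.8 and 31.8 CPM, and the mutant library with more of it, replicate 2, was that with less Prox1. None of the 10 was called by edgeR or limma and 9 were called higher by DESeq2, with all 10 higher at an unadjusted p under 0.05 in edgeR. Of all genes 0.319% were called higher by DESeq2 and 8.86% were higher at that p. Their part in the levels of Prox1 was not tested.

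Of 36 other annotated genes within 1 Mb of the Prox1 body, 21 were tested. None was called in edgeR, DESeq2 or limma, a count near the background of 0.198% lower and 0.0193% higher in edgeR. At an unadjusted p under 0.05 in edgeR 1 was higher and none lower, where 8.86% and 9.94% of all genes were. Their median log2 fold change was -0.070, and their range was -1.77 (Gm38245) to 0.54 (A430027H14Rik). On the side of lower coordinates the nearest were Smyd2, 195672 bases away, at -0.0083, and Gm38245, 202076 bases away. On the other side they were Gm29678 and Gm30725, 232931 and 248619 bases away, which were not tested. Gm28172, inside Prox1, was at -1.56 (SE 0.800, FDR = 0.374).

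In control nuclei Prox1 was highest in DGCs, then in oligodendrocytes, then in inhibitory neuron cluster 18. Levels are CPM of unique molecular identifiers (UMIs), summed over the nuclei of each deposited cell type. Those types were called by clustering the same nuclei, so that the levels are a description. In DGC nuclei Prox1 was at 283 CPM in control replicate 1 and in control replicate 2. Oligodendrocytes held 247 and 191 CPM (219 ± 39.3, mean ± SD), or 0.774 of the DGC level. Cluster 18 held 132 and 93.6 CPM (113 ± 27.2). For these 3 types, the lower control of each lay above the higher control of the next. Below them, oligodendrocyte precursors (OPCs) held 44.4 CPM on average, inhibitory cluster 5 held 43.7, inhibitory cluster 12 held 39.4, microglia held 31.8, astrocytes held 30.4 and deposited cluster 14 held 28.3, with overlap between neighbours in this order. Pyramidal neurons were lower, at 13.0 CPM in CA3, 11.9 in CA1 and 10.4 in CA2. The lowest mean of 18 types was that of the type deposited as mossy cells, at 3.62. It rests on 0 and 4 UMIs in control replicates 1 and 2. In control replicate 2 this type, at 7.23 CPM, lay above excitatory clusters 7, 8 and 13, so that its rank is not firm. The 4 mossy markers summed to 136 CPM in its control nuclei, against 150 CPM in those of CA1. Microglia are not known to make Prox1, and their level is given for comparison. The part of free RNA in it was not tested.

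Prox1os had the same order at its top. It was at 97.8 and 102 CPM in DGC nuclei of control replicates 1 and 2, at 42.6 and 61.6 CPM in oligodendrocytes and at 15.5 and 28.1 CPM in inhibitory cluster 18. After cluster 18 came deposited clusters 14 and 19, at 20.6 and 18.3 CPM on average and overlapping with their neighbours, then inhibitory cluster 5 at 18.0 CPM and OPCs at 14.35 and 13.65 CPM in control replicates 1 and 2, which did not overlap. Microglia held 4.84 CPM. Some deposited names go against marker genes. In cluster 14, deposited as inhibitory neurons, 9.76% and 13.0% of the nuclei of control replicates 1 and 2 held a UMI of Gad1 or Gad2, which make GABA, against 95.7% and 100% in cluster 18. The 6 markers of meninges summed to 3414 and 4272 CPM in cluster 14. In cluster 19, deposited as excitatory neurons, they summed to 1341 and 631 CPM, against 80.4 and 119 CPM for 4 excitatory markers. Both are therefore called by number alone.

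**Figure D3:**
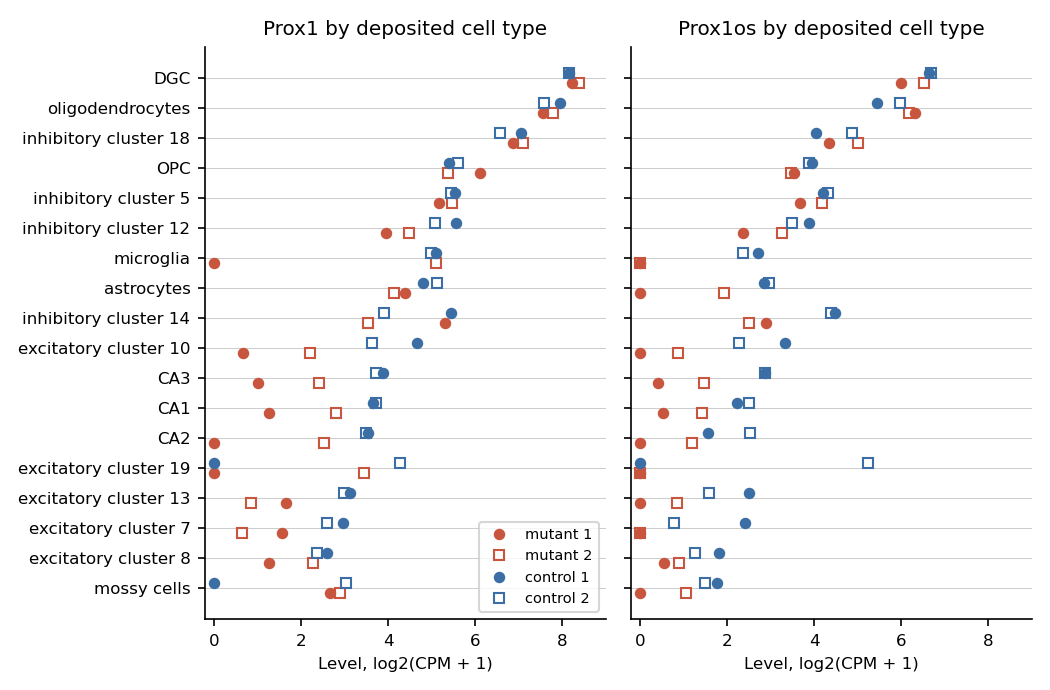
Levels of Prox1 and Prox1os as log2(CPM + 1) in each deposited cell type, in the order of the control mean of Prox1, with control in blue, mutant in red, filled circles for replicate 1 and open squares for replicate 2. For Prox1, DGCs are at the top, with 283 CPM in the controls, followed by oligodendrocytes and inhibitory cluster 18 in both genotypes. For Prox1os in mutant replicate 1, oligodendrocytes (78.9 CPM from 11 UMIs) and DGCs (62.8 CPM from 26 UMIs) cannot be ordered at this depth.

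The pattern of Prox1os over cell types was the most like that of Prox1. Over 18 types with at least 10 nuclei in each control, Pearson's r of log2(CPM + 1) between them was 0.89 in the control means, the highest for either of them among 12418 genes compared, and 0.92 in the mutant means. The next for Prox1 were Micall1 (0.83), Dock10 (0.80), Calb1 (0.75) and Dnajc19 (0.75). Those for Prox1os included Stxbp6 (0.85), Sytl5 (0.79) and Micall1 (0.77). The types share libraries and differ in depth, and r is a description. Micall1 and Dock10 were at 222 and 3247 CPM in oligodendrocytes and at 27.3 and 797 CPM in DGCs, an order opposite to that of Prox1. Calb1 had an r of 0.40 with Prox1 over the mutant types.

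The cells that held Prox1 RNA differed between genotypes. DGCs were 36.1% and 27.9% of nuclei in control replicates 1 and 2 and held 84.3% (exact 95% interval 83.1 to 85.4) and 78.5% (77.5 to 79.6) of all Prox1 UMIs. In mutant replicates 1 and 2 they were 1.70% and 4.43% of nuclei and held 35.1% (30.1 to 40.4) and 45.4% (43.4 to 47.4). In each mutant the share of Prox1 UMIs in DGCs was thus below that of either control, and these intervals cover counting error only. Inhibitory clusters 5, 12 and 18 together held 41.9% and 19.3% of Prox1 UMIs in the mutants against 4.64% and 4.46% in the controls. They were 15.5% and 12.5% of nuclei in the mutants and 7.50% and 7.40% in the controls. Oligodendrocytes held 7.37% and 19.4% against 2.88% and 8.31%. With each nucleus weighted equally, they held 13.6% and 44.3% against 7.40% and 23.0%, and DGCs held 28.1% on average in the mutants, which were nearly equal, against 82.4% and 66.1%, so that oligodendrocytes then held more than DGCs in mutant replicate 2. Their share of nuclei also differed between replicates, at 1.38% and 10.6% in the mutants and 3.59% and 14.3% in the controls. Prox1os had similar shares, with 28.6% and 41.2% of its UMIs in mutant DGCs against 85.1% and 78.2% in control DGCs. The 3 inhibitory clusters held 49.5% and 23.8% of them in the mutants against 4.67% and 5.10%.

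**Figure D4:**
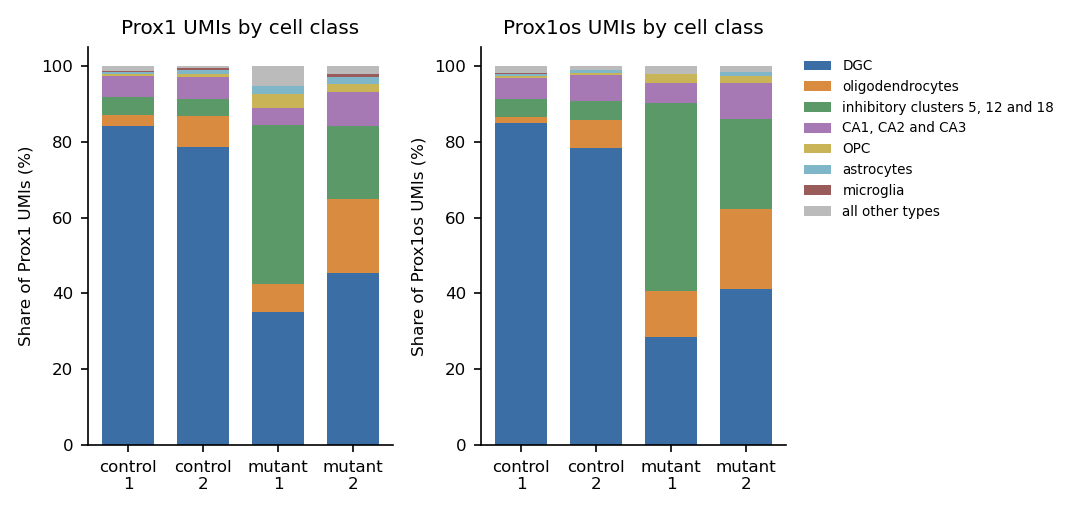
Share of all Prox1 UMIs (left) and Prox1os UMIs (right), in percent, that lay in each class of deposited cell types, 1 stacked bar per snRNAseq sample. DGCs (blue) hold 84.3% and 78.5% of Prox1 UMIs in the controls and 35.1% and 45.4% in the mutants, where inhibitory clusters (green) and, in replicate 2, oligodendrocytes (orange) hold more.

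Summed over all nuclei, Prox1 was at 13.4 and 32.8 CPM in the mutants and at 97.9 and 95.2 CPM in the controls, a 4.18-fold difference of the means. Prox1os was at 3.46 and 9.84 CPM against 33.5 and 34.4 CPM, a 5.11-fold difference. As in bulk RNAseq the groups did not overlap, but mutant replicate 1 was here the lower. The smallest two-sided p that an exact permutation of 2 samples against 2 allows is 0.33, and no such test was run on these sums. When every type was given its mean level in the controls and each sample kept its own makeup of types, the sums for Prox1 came to 21.7 and 36.3 CPM for the mutants and 97.0 and 95.7 CPM for the controls. Those for Prox1os came to 8.19 and 13.1 CPM against 34.6 and 33.7 CPM. The measured sums of the mutants lay below these, by more in replicate 1. With DGC nuclei left out, Prox1 was at 8.84 and 18.8 CPM in the mutants and at 21.8 and 27.8 CPM in the controls, and the groups did not overlap.

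Within DGC nuclei Prox1 was not lower in the mutants. By the study's account most DGCs left in the mutant are ventral, so that genotype and position along the hippocampus cannot be told apart in these nuclei. Prox1 was at 299 and 333 CPM in mutant replicates 1 and 2 (90 and 463 nuclei), against 283 CPM in each control (2336 and 2007 nuclei). Both mutants were above both controls, and the log2 fold change of 0.18 (SE 0.154, 95% interval -0.17 to 0.52) did not pass the test (edgeR, FDR = 0.620). Prox1os was at 62.8 and 90.5 CPM in the mutants and at 97.8 and 102 CPM in the controls, at a log2 fold change of -0.28 (SE 0.199, interval -0.72 to 0.17, FDR = 0.539). Both mutants were below both controls, most of all replicate 1, where 26 UMIs were counted. Neither member was called, beside 0.64% of 15003 genes called lower and 0.827% called higher in DGC nuclei at an FC above 2 and an FDR below 0.05.

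Counts per nucleus gave the same picture of Prox1 in DGCs. A DGC nucleus held 1.38 and 2.46 Prox1 UMIs on average in mutant replicates 1 and 2, against 1.38 and 2.29 in control replicates 1 and 2. At least 1 UMI was found in 70.0% and 82.5% of mutant and in 67.5% and 81.7% of control DGC nuclei. These values went with depth, which was higher in replicate 2 of each genotype. With each nucleus thinned to 1500 UMIs, which left out none, the shares were 40.0% (interval 29.8 to 50.9) and 38.0% (33.6 to 42.6) in the mutants and 32.2% (30.3 to 34.1) and 32.1% (30.0 to 34.2) in the controls. Microglia, with a median of 1632 and 2434 UMIs in the controls against 4628 and 7688 in DGCs, held a Prox1 UMI in 4.76% and 3.14% of thinned nuclei. Mutant microglia held none in 13 nuclei of replicate 1, where 3 UMIs would be 139 CPM, and had 4.22% in replicate 2. For Prox1os the thinned shares in DGCs were 5.56% and 14.5% in the mutants against 12.6% and 12.2%, and the groups overlapped.

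Of 12 DGC markers, 2 were called lower in mutant DGC nuclei, where 0.64% of all genes were called lower and 0.827% higher. The 12 summed to 1987 and 2180 CPM in the mutants and to 2832 and 3131 CPM in the controls, without overlap, and their median log2 fold change was -0.56 against -0.013 over all genes. For each UMI of these markers, DGC nuclei held 0.151 and 0.152 Prox1 UMIs in the mutants and 0.0998 and 0.0903 in the controls. They were C1ql2 (-1.57, SE 0.264, FDR = 0.0242), a synaptic organiser of mossy fibres, and Lct (-1.43, SE 0.273, FDR = 0.0364). By the study's account Lct is itself more abundant dorsally. Of 15 granule lineage genes tested, Sox4, a factor of young neurons, was called lower (-1.92, SE 0.391, FDR = 0.0446). Of 13 partners and upstream genes tested, Nr2f2, a nuclear receptor known to bind Prox1, was called higher (2.06, SE 0.242, FDR = 0.00662). With 1 call in each, nothing is read about these lists from that background. Without mutant replicate 2, edgeR called no gene lower or higher in DGC nuclei, with 755 lower by over 2-fold at an unadjusted p under 0.05, and without mutant replicate 1 it called 1 lower and 15 higher. The 4 CA3 markers, led by Grik4, summed to 350.1 and 511 CPM in mutant DGC nuclei and to 215 and 299 CPM in control DGC nuclei. Their part in these values was not tested.

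In oligodendrocytes Prox1 was near its control level. It was at 186 and 219 CPM in mutant replicates 1 and 2 (73 and 1112 nuclei) and at 247 and 191 CPM in control replicates 1 and 2 (232 and 1029 nuclei), and the groups overlapped. The log2 fold change was -0.03 (SE 0.256, 95% interval -0.56 to 0.51, edgeR, FDR = 0.9997). Prox1os was at 78.9 and 71.2 CPM in the mutants and at 42.6 and 61.6 CPM in the controls. Both mutants were above both controls, and the log2 fold change of 0.42 (SE 0.273, interval -0.15 to 0.99, FDR = 0.889) did not pass. In this type 0.0892% of 10086 genes were called lower, none was called higher, and neither member was called. Markers of myelinating oligodendrocytes summed to between 16935 and 18560 CPM in these nuclei, and the 6 DGC markers used to check types to between 7.17 and 34.5 CPM. The full list of 12 DGC markers summed to between 351 and 832 CPM, led by Stxbp6, at 698 CPM in the control mean. Thinned to 1500 UMIs, 20.5% and 26.1% of mutant and 29.3% and 22.1% of control oligodendrocyte nuclei held Prox1, well above microglia. In OPCs, the precursors of these cells, Prox1 was at 68.4 and 40.4 CPM in the mutants, from 13 and 52 UMIs, and at 41.0 and 47.8 CPM in the controls. The groups overlapped (0.08, SE 0.318), and 12.4% and 5.64% of thinned mutant and 5.05% and 6.41% of control OPC nuclei held it, where the first rests on 11 of 89 nuclei (interval 6.33 to 21.0). In OPC nuclei 0.121% of genes were called lower and 0.011% higher.

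Among inhibitory neurons Prox1 was highest in nuclei with Adarb2, a marker of interneurons from the caudal ganglionic eminence, and without Lhx6. In nuclei of clusters 5, 12 and 18 together with a UMI of Adarb2 and none of Lhx6, which marks interneurons of the medial ganglionic eminence, Prox1 was at 90.5 and 79.1 CPM in the mutants and at 87.0 and 70.9 CPM in the controls. In nuclei with Lhx6 and no Adarb2 it was at 3.37 and 7.31 CPM against 15.4 and 8.84 CPM. A Prox1 UMI was found in 27.95%, 32.0%, 32.1% and 34.5% of the former in mutant replicates 1 and 2 and control replicates 1 and 2, and in 1.80%, 6.01%, 11.1% and 8.16% of the latter. Nuclei with both markers held 8.06 and 22.1 CPM in the mutants and 21.5 and 26.0 CPM in the controls, and those with neither held 3.04 and 8.80 against 11.4 and 6.002 CPM. In all 4 samples the class with Adarb2 alone was the highest of the 4 classes. By single markers, nuclei with Vip, the peptide of interneurons that inhibit other interneurons, held 208 and 201 CPM of Prox1 in the mutants and 205 and 135 CPM in the controls. Nuclei with Htr3a, a serotonin receptor subunit, held 128 and 126 CPM against 122 and 156 CPM. Nuclei with Sst, the peptide of dendrite-targeting interneurons, held 14.3 and 17.9 CPM against 13.99 and 20.5 CPM, and those with Pvalb, of fast-spiking interneurons, held 6.498 and 13.0 CPM against 11.2 and 25.6 CPM. Vip was the highest of all markers with a value in every sample but control replicate 2, where Htr3a was. Other caudal markers went with far less Prox1, such as Lamp5 (36.4 and 47.6 against 62.4 and 44.2 CPM) and Reln (27.4 and 32.9 against 33.6 and 34.5 CPM), the secreted protein reelin. Of the 12 caudal markers, Sncg has no value in any sample and Sp8 has none in mutant replicate 1, where fewer than 10 nuclei held them. The lowest caudal marker with a value lay above the highest medial one in every sample but control replicate 1, where Sp8 was at 22.6 CPM and the medial marker Nxph1 at 29.1 CPM. The marker classes come from the same nuclei, and their values are a description.

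By cluster, none of the inhibitory types was called. Cluster 18, where between 91.3% and 98.1% of nuclei held Adarb2 and between 0% and 8.33% held Lhx6, had 116 and 136 CPM of Prox1 in mutant replicates 1 and 2 against 132 and 93.6 CPM in control replicates 1 and 2. The groups overlapped (log2 fold change 0.26, SE 0.306, interval -0.42 to 0.94). In cluster 5, the largest, Prox1 was at 35.1 and 43.4 CPM against 45.1 and 42.3 CPM (-0.11, SE 0.182, interval -0.51 to 0.30, edgeR, FDR = 0.868) and Prox1os was at 11.7 and 17.05 against 17.3 and 18.8 CPM (-0.26, SE 0.254, FDR = 0.735). Of 14024 genes in cluster 5, 0.00713% were called lower and none higher. In cluster 12 Prox1 was at 14.6 and 21.2 CPM in the mutants and at 46.3 and 32.6 CPM in the controls, without overlap, and the difference did not pass (-0.92, SE 0.344, interval -1.65 to -0.19, FDR = 0.439), where 0.042% of genes were called lower and 0.0315% higher. It was -0.31 (SE 0.361) without nuclei of 3 or more DGC markers and -0.42 (SE 0.384) without the 5% of nuclei with most UMIs.

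In pyramidal neurons the low level of Prox1 was lower still in the mutants, without passing the test. In CA1 it was at 1.42 and 6.02 CPM in mutant replicates 1 and 2 and at 11.6 and 12.3 CPM in control replicates 1 and 2 (log2 fold change -1.56, SE 0.481, interval -2.67 to -0.45, edgeR, FDR = 0.421). In CA3 it was at 1.0204 and 4.31 against 13.8 and 12.2 CPM (-1.95, SE 0.421, interval -2.90 to -0.99, FDR = 0.167). The groups did not overlap in either type, and Prox1os had log2 fold changes of -1.78 in CA1 and -2.15 in CA3 (FDR = 0.421 and 0.168). CA1 passed with the replicate number as a block (FDR = 0.0136 for Prox1) and, for Prox1 at -3.07, without mutant replicate 2 (FDR = 0.00460), where the mutant arm is 1 sample with 13 UMIs and the spread comes from the controls alone. Under these settings 0.232% and 0.0839% of genes in CA1 were called lower. CA3 passed for Prox1 without the filter on low counts (FDR = 5.34e-06), with the block (FDR = 0.00170) and without any 1 of the 4 samples, which leaves an arm of 1 sample each time. There 0.542% of genes were called lower without the filter and 0.738% with the block. Without mutant replicates 1 and 2 and control replicates 1 and 2 in turn, they were 0.437%, 0.121%, 0.567% and 1.22%.

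Prox1 in pyramidal nuclei went with other DGC transcripts in the controls and in mutant replicate 2. In CA1 of control replicate 1, 100% of 16 nuclei with both Prox1 and Prox1os held UMIs of at least 3 DGC markers, as did 61.0% of 82 nuclei with Prox1 and 8.53% of 1125 without it. In control replicate 2 these were 92.6% of 27, 61.3% of 106 and 24.8% of 1188 nuclei. In CA3 they were 92.3%, 64.7% and 4.16% of the nuclei of control replicate 1. In CA1 of mutant replicate 2 they were 52.7% of 93 nuclei with Prox1 and 14.2% of 2584 without it. In CA1 of mutant replicate 1 they were 7.69% of 13 and 7.04% of 1534 nuclei, which shows no such relation. Nuclei with Prox1 also held more UMIs, with medians of 11101 against 8071 in CA1 of control replicate 1. Dsp, at 0.622% of CA1 nuclei without Prox1 in that sample, was found in 18.3% of those with it, but in CA3 of mutant replicate 2 it was in 0% of nuclei with Prox1 and 0.669% without. With nuclei of 3 or more DGC markers left out, the log2 fold change of Prox1 was -0.88 (SE 0.371, FDR = 0.429) in CA1 and -0.36 (SE 0.545, FDR = 0.827) in CA3, and the level of Prox1 in control CA1 went from 0.0422 to 0.0136 of that in DGCs.

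The other types had few Prox1 UMIs. Prox1 was at 20.1 and 16.7 CPM in mutant astrocytes against 26.8 and 34.0 CPM in control astrocytes (log2 fold change -0.78, SE 0.322, FDR = 0.375). In excitatory cluster 10 it was at 0.593 and 3.60 CPM against 24.3 and 11.4 CPM (-2.78, SE 0.674, FDR = 0.256), and this passed without the filter on low counts and without control replicate 2, where 0.202% and 0.516% of genes were called lower. Of all genes, 0.253% and 0.131% were called lower and higher in astrocytes, and none and 0.0482% in cluster 10. With 1 sample left out, cluster 10 ranged from -4.61 (without mutant replicate 2) to -2.11 (without control replicate 1), and the first rests on mutant replicate 1 with 1 UMI of Prox1 and is not a size. In CA2 the change was -1.50 (SE 0.688). Without mutant replicate 1 it was -1.10, and without mutant replicate 2 the fit gave -6.44, which rests on mutant replicate 1 with 0 UMIs of Prox1 and is likewise no size. In deposited cluster 14 the change was -0.52 (SE 0.826), and in microglia it was 0.02 (SE 0.562). In CA2 no gene was called lower and 0.00992% were called higher, and in microglia 0.014% and 0.0421% were. In the type deposited as mossy cells, excitatory clusters 7, 8 and 13 and deposited cluster 19 both members were too low to be tested. Over the 13 types in which a member was tested, between 0% and 0.64% of genes were called lower and between 0% and 0.827% higher, and no member was called. At an unadjusted p under 0.05 in edgeR, Prox1 was lower in astrocytes, CA1, CA3, excitatory cluster 10 and inhibitory cluster 12, where 5.58%, 5.4%, 6.14%, 3.99% and 4.67% of all genes were. DESeq2 called it in none of the types in which it gave an adjusted p.

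**Figure D5:**
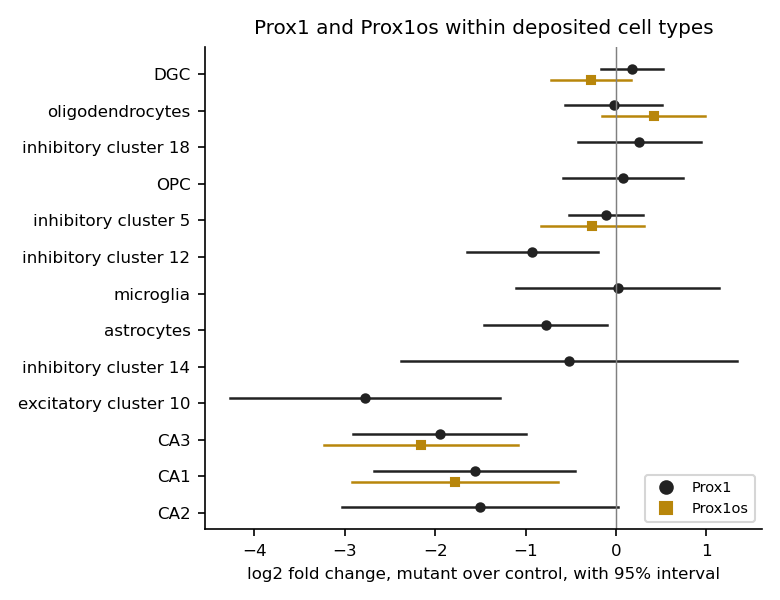
Log2 fold change of Prox1 (dark circles) and Prox1os (gold squares), mutant over control, with its 95% interval, within each deposited cell type in which the member was tested. The intervals for DGCs, oligodendrocytes and inhibitory clusters 5 and 18 span 0, and those for CA1, CA3, astrocytes, excitatory cluster 10 and inhibitory cluster 12 lie below it, without passing the adjusted test.

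The odds ratio of finding Prox1 and Prox1os in the same nucleus was higher in inhibitory cluster 5 than in DGCs in every sample. The odds ratio of finding both, within 5 strata of UMIs per nucleus, was 33.0 and 23.8 in cluster 5 of mutant replicates 1 and 2 and 4.66 and 19.6 in that of control replicates 1 and 2. In control replicate 2, 81.4% of 59 nuclei of cluster 5 with Prox1os held Prox1, against 13.1% of the others, and 48 of its 92 nuclei with Prox1 held Prox1os. In DGCs of that sample 84.7% of nuclei with Prox1os and 78.8% of the others held Prox1, so that the share of Prox1os nuclei with Prox1 was no lower in DGCs. The odds ratio was far above 1 in all 4 samples of that cluster. In DGCs it was 2.2 and 1.58 in the mutants and 0.886 and 1.11 in the controls. In oligodendrocytes it was 1.12 and 1.0185 against 0.707 and 1.11. In CA1 it was 10.4 and 14.5 in the controls and 18.3 in mutant replicate 2. In CA3 it was 21.0 and 24.8 in the controls and 13.3 in mutant replicate 2. Of CA1 nuclei with both members, 100% and 92.6% in control replicates 1 and 2 held at least 3 DGC markers. In CA1 of mutant replicate 2, 86.7% did, and in CA3 of the controls 92.3% and 100% did. The other inhibitory clusters did not all go the way of cluster 5. In mutant replicate 2 the odds ratio was 7.11 in cluster 12 but 0.605 in cluster 18, where 11 nuclei held Prox1os. These are descriptions over nuclei of 1 sample each, with no test.

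The share of Prox1os among the UMIs of both members was lower in DGCs of both mutants than in those of either control. It was 17.3% (exact 95% interval 11.6 to 24.4) and 21.4% (19.3 to 23.6) in mutant replicates 1 and 2, against 25.7% (24.4 to 27.0) and 26.5% (25.4 to 27.6) in control replicates 1 and 2. The highest mutant lay below the lowest control, and the difference was not tested. Mutant replicate 1 rests on 26 UMIs of Prox1os. As above, genotype and position along the hippocampus cannot be told apart in DGC nuclei. In oligodendrocytes it was 29.7% (15.9 to 47.0) and 24.6% (21.3 to 28.1) against 14.7% (9.11 to 22.0) and 24.4% (21.1 to 27.9), and the replicate 2 values lay within each other's intervals. In inhibitory cluster 5 it was 25.0% and 28.2% against 27.7% and 30.8%, and the groups overlapped. These shares are of UMIs, which come from the 3' ends of RNAs and from sites inside introns, and are not levels per length.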

How the data were processed

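Bulk RNAseq and snRNAseq of mouse hippocampus were each available for 2 mutant and 2 control mice. For bulk RNAseq the authors deposited RSEM (1.3.0, with Bowtie2 2.2.9, mm10) expected counts and TPM per library, and a matrix of normalized signal. For snRNAseq they deposited UMI counts per nucleus (Cell Ranger 3.1.0, a pre-mRNA index of mm10) with cell types from their own clustering. Samples were grouped by the labels. The members and gene lists were chosen with earlier results of these data known.

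Expected counts were rounded and tested with edgeR 4.0.16 (R 4.3.3), with TMM scaling, filterByExpr, the quasi-likelihood test and Benjamini-Hochberg adjustment. A bulk gene was called at an FC above 3 and an FDR below 0.05. UMI counts were summed per sample and type, for the 18 of 21 types in which no sample had fewer than 10 nuclei, and called at an FC above 2 and an FDR below 0.05. The nuclei were those the authors kept, and no doublet caller was run here. DESeq2 1.42.0, limma 3.58.1 on the authors' matrix (log2 of the value plus 1), RLE scaling, no filter, a replicate block, left-out samples and left-out nuclei were alternatives. Shares of nuclei with a UMI were taken after thinning to 1500 UMIs. Intervals on shares are exact (Clopper-Pearson) and cover counting error only. p-values set the difference between genotypes against the spread between samples of a genotype, which edgeR estimates in part from all genes. Each genotype had 2 samples in each data set.

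Named were the members, the label checks Wls, Xist and Ddx3y, list genes that passed, the 2 largest and 2 smallest changes of a list, the nearest neighbours, and the 5 genes most like each member, of which 1 is not reported here. Other list genes named were chosen after their values were seen. Scripts were tested on simulated data. Python 3.11.15 with numpy 2.4.6, pandas 2.3.3, scipy 1.17.1 and matplotlib 3.10.9 was used.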

Additional observations from a re-analysis of the deposited data

Results flagged for a closer look

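Among types in which a member was tested, in 7 cases every mutant sample moved one way in DGC nuclei and the other way in another type, relative to both controls. These differences between types were not tested. Of all genes tested in both types, between 1.01% and 1.87% were higher in mutant DGC nuclei and lower in the other type by this rule, over the 6 types named for Prox1, and 2.21% lower in DGC nuclei and higher in oligodendrocytes. Prox1 had a log2 fold change of 0.18 in DGCs, against -1.56 in CA1, -1.50 in CA2, -1.95 in CA3, -0.78 in astrocytes, -2.78 in excitatory cluster 10 and -0.92 in inhibitory cluster 12. Prox1os had one of -0.28 in DGCs against 0.42 in oligodendrocytes. None of these values passed the adjusted test within its own type in edgeR.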

How the results depend on the processing

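In bulk RNAseq the direction of both members held under every alternative run. Prox1os passed with DESeq2 (-2.56), without the filter (-2.56) and in the authors' matrix (-2.62). With 1 library left out, Prox1 ranged from -3.17 to -2.40 and Prox1os from -3.14 to -2.13. The 41 genes called lower became 112 without the filter and 24 with the replicate block, and between 0 and 147 with 1 library left out. The 4 called higher became 66 with DESeq2, 201 without the filter and 2 with the block, and between 0 and 248 with 1 library left out. The counts of 0 were in edgeR without control replicate 1 or 2, where 118 and 109 genes were lower by over 3-fold at an unadjusted p under 0.05.

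The replicate numbers give 2 pairs only, whose deviations correlated at 0.064 in bulk RNAseq and 0.15 in DGC nuclei, and the labels name no pairing. In bulk RNAseq the number goes with Xist and Ddx3y, and with it as a block Prox1 stayed called (-2.78, edgeR, FDR = 0.0469) and Prox1os did not pass (-2.62, FDR = 0.0709). In snRNAseq it goes with depth. With the replicate block, CA1 was at -1.67 (Prox1) and -1.87 (Prox1os) and CA3 at -1.94 and -2.17, and all 4 passed. In CA3 both also passed without the filter (-1.96 and -2.17). With 1 sample left out, Prox1 ranged from -3.07 to -1.01 in CA1 and -3.59 to -1.59 in CA3, and Prox1os from -3.24 to -1.31 and -4.08 to -1.84. DESeq2 gave no adjusted p for the members in CA1, CA3, astrocytes and excitatory cluster 10.

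Changes near 0 turned direction. Prox1 in oligodendrocytes was at 0.054 with the block, 0.0096 without the 5% of nuclei with most UMIs, and -0.18 to 0.13 with 1 sample left out (0.027 without mutant replicate 1). In inhibitory cluster 5, without nuclei of 3 or more DGC markers, Prox1 was at 0.15 and Prox1os at 0.23, and Prox1 ranged from -0.29 to 0.0067 with 1 sample left out. Microglia were at -0.36 with DESeq2 and -0.0020 with the block. With 1 sample left out, OPCs ranged from -0.10 to 0.62 and deposited cluster 14 from -1.22 to 0.62. Other small changes kept their direction but moved in size with 1 sample left out. Prox1 ranged from 0.038 to 0.24 in DGC nuclei and from 0.014 to 0.51 in inhibitory cluster 18. Prox1os ranged from -0.71 to -0.13 in DGC nuclei and from 0.25 to 0.84 in oligodendrocytes. In DGC nuclei the 96 lower calls became 261 without the filter and 261 with the block, and 0 to 208 with 1 sample left out. The 124 higher calls became 295, 308, and 0 to 363.

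With nuclei weighted equally, Prox1 in control cluster 5 was 0.228 of the DGC level and CA1 0.0338. Without the 5% of nuclei with most UMIs they were 0.163 and 0.0330, and CA1 was 0.0136 without nuclei of 3 or more DGC markers. The DGC share of UMIs, weighted equally, was 74.2% (Prox1, control), 28.1% (Prox1, mutant) and 23.1% (Prox1os, mutant), and without nuclei of 3 or more DGC markers it was 87.0% (Prox1, control) and 88.5% (Prox1os, control). DGC nuclei with a UMI averaged 74.6% (control) and 76.3% (mutant) for Prox1 and 41.9% and 33.2% for Prox1os unthinned, and at 1000 UMIs 23.4%, 29.1% and, for control Prox1os, 9.72%. At 1000 UMIs Prox1os was in 6.67% and 8.86% of mutant against 10.6% and 8.87% of control DGC nuclei. The replicate 2 values were nearly equal, and mutant replicate 1 rests on 6 of 90 nuclei, so that no separation is read from these shares. The control odds ratio in DGCs was 1.26 in 1 stratum. By expected counts the bulk ratio of Prox1os to Prox1 was 0.0223 (control) and 0.0245 (mutant), which is not per length. The cause of these changes was not tested. Each genotype has 2 mice, and mutant replicate 1 has 90 DGC nuclei. How small a change within a type could be detected was not tested.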

Other observations

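In 3 types with too few nuclei in some samples to be fitted, Prox1 UMIs were few. Choroid plexus nuclei held 8 in 184 nuclei of mutant replicate 2 (8.35 CPM) and 4 in 9 nuclei of control replicate 1 (67.1 CPM). Cluster 15 was deposited as inhibitory neurons, but at most 9.80% of its nuclei in any sample held Gad1 or Gad2. It held 1, 3, 0 and 0 in 143, 102, 15 and 1 nuclei of mutant replicates 1 and 2 and control replicates 1 and 2. The type labelled EC held 0, 1 and 0 in 4, 11 and 9 nuclei of mutant replicates 1 and 2 and control replicate 2.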
